A study of Homo sapiens with 6 samples.

Results

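Interferon-stimulated genes are the genes that cells switch on when they sense type I interferon, and many of their products block a step of virus replication. The hormone-like signal acts through a receptor pair and Janus kinases, and a complex that includes IRF9 then binds the interferon-stimulated response element in target promoters. Monocytes and macrophages keep a low tonic level of this programme without infection. Here 39 such genes, listed by name, were followed in THP-1, a human line from a monocytic leukaemia, before and after its differentiation into macrophage-like cells. A probe set naming a single gene was available for 37 of them, out of 18417 genes so measured. GBP1 and STAT2 were not analysed here. Where a gene had several probe sets, the brightest over all 6 arrays stood for it.

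The unstimulated group held 3 arrays of THP-1 cells that received no PMA (phorbol myristate acetate, which switches on protein kinase C). The other group held 3 arrays of THP-1 cells given 200 nM PMA for 3 days and then kept without it for 3 days. All cells were grown in RPMI medium with serum and 2-mercaptoethanol. Nothing in the labels says that replicates were separate cultures, so p-values measure only array-to-array spread, possibly of technical origin. Precision is limited by having 3 arrays a group. All cells come from the same leukaemia line, and changes of RNA per cell cannot be told apart from changes in the share of cells that make it.

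Array medians over all probe sets lay between 6.10 and 6.25, and arrays correlated at 0.988 to 0.995 within a group. Of 10 monocyte and macrophage markers, 8 were measured, of which 6 in unstimulated cells and all 8 after PMA had group means above every array's median gene. No T cell marker of 5, B cell marker of 4 or fibroblast marker of 5 did so in either group. Levels above that line were shown by NKG7 of the NK cell list, KRT18 of the epithelial list, KLF1 of the erythroid list, and TCF4 and PTCRA of the plasmacytoid dendritic cell list. The defining plasmacytoid marker CLEC4C lay at 4.29 to 4.60 on all arrays.

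Promoter sequence was examined first, because the response element is what most of these genes are known to share. Windows from 250 bases before to 50 bases after the annotated start (RefSeq, GRCh38.p14) were available for 31 of the 39 genes. The core of the element was searched on both strands as GAAA, any 2 bases, and GAAA, with overlapping matches counted. It was present for 24 of the 31 genes (77.4%), against 4.38% of all 27305 genes with a window, and 14 of the 24 held at least 2 copies in a single window. The gamma-activated site core, TTC, any 3 bases, and GAA, was present for 9 of the 31 (29.0%), against 9.38% of all genes. The share of single windows holding these cores was 3.57% and 7.66% of 35116 windows. A match is a description of letters, not a shown binding site.

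The following stretches, upstream of the start and 5′ to 3′ on the gene's strand, are those of the members that passed the test below and hold a core. IFI44L is added because it passed without a control array, a choice made after its values were seen. Capitals mark the core. The stretches are IFI6 at chr1:27672261-27672363 (minus strand), IFI44L at chr1:78620269-78620399 (plus), IFIT5 at chr10:89414508-89414567 (plus), OAS3 at chr12:112938316-112938473 (plus), IFIH1 at chr2:162318685-162318858 (minus), PARP9 at chr3:122564317-122564356 (minus), IFITM1 at chr11:313985-314024 (plus) and RSAD2 at chr2:6877617-6877656 (plus).
IFI6: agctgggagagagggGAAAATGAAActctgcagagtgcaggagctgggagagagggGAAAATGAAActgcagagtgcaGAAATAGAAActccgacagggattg
IFI44L: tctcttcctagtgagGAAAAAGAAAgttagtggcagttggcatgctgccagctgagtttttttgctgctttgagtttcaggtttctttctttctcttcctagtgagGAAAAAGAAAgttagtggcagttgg
IFIT5: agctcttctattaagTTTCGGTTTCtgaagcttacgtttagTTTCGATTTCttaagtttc
OAS3: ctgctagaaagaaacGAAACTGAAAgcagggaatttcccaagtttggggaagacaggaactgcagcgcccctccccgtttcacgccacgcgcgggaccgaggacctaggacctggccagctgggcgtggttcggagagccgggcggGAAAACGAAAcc
IFIH1: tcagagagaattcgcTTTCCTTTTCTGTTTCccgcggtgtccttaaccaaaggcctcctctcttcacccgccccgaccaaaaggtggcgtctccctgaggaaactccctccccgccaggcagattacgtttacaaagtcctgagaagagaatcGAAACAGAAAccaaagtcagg
PARP9: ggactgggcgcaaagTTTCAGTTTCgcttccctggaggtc
IFITM1: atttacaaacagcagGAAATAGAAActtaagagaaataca
RSAD2: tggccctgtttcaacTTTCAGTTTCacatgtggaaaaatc

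IFI6 carried 3 copies, and IFIH1 carried 3, of which the upstream pair overlaps. In IFIT5 and IFITM1 a further core spans the start and is not printed. The windows of HERC6, SAMD9L, XAF1, CMPK2, OAS1, IFI35 and the unmeasured STAT2 held no core of the response element. RSAD2, MX1 and PARP9 have several annotated starts, and not every window of these genes held it.

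**Figure D1:**
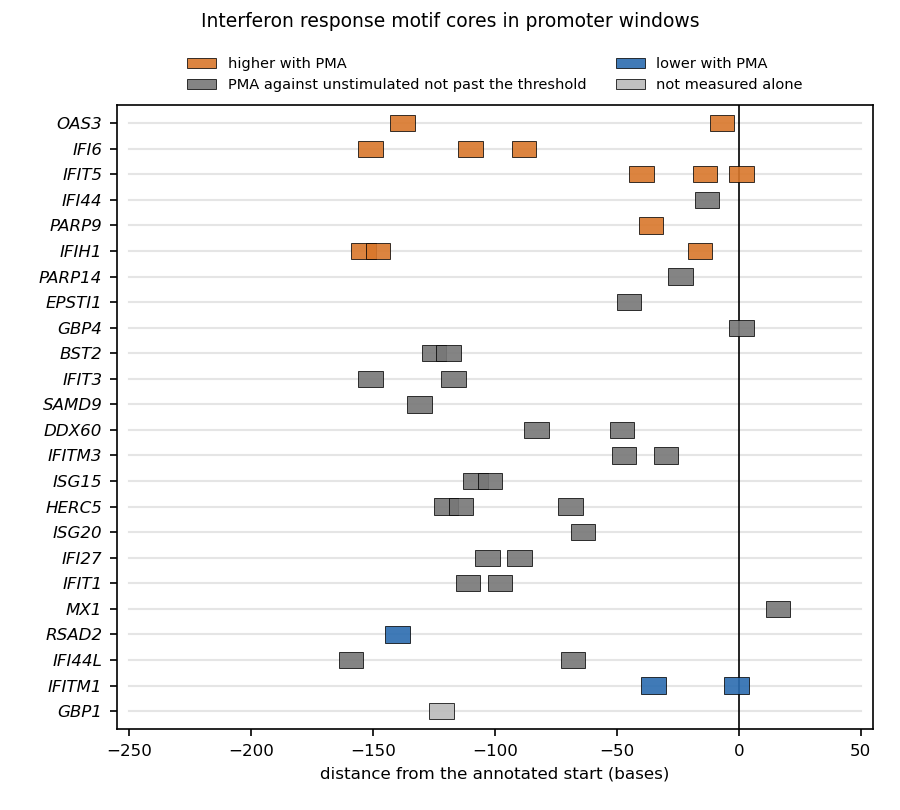
Positions of the response element core in the promoter windows of the 24 genes that hold it, 1 line per gene, with the distance from the annotated start in bases on the horizontal axis. For a gene with several windows, the one with most cores is drawn. Boxes are coloured by the limma result over 6 arrays, and genes run from the highest log2 fold change (OAS3) to the lowest (IFITM1), with the unmeasured GBP1 last. Most cores lie upstream of the start, a core each of IFIT5, GBP4 and IFITM1 spans it, and the MX1 core drawn lies after it.

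The comparison asked how these genes differed between PMA-differentiated and unstimulated cells. They went both ways. Values are deposited log2 values, and a fold change is the log2 difference, PMA minus unstimulated, ± its standard error in a limma fit across all genes with 3 arrays per group. At a Benjamini-Hochberg adjusted p of 0.05, 5 of the 37 measured genes were higher (13.5%, against 13.2% of all genes) and 6 were lower (16.2%, against 13.2% of all genes). Both shares were near those of all genes. IFI6, IFIT5, OAS3, IFIH1 and PARP9 rose. IFITM1, XAF1, MX2, CMPK2, RSAD2 and IFITM2 fell. The other 26 did not pass, and the median over the 37 was 0.02, against −0.03 over all genes. The PMA arrays all lay above the unstimulated arrays for 10 members (27.0%, against 19.2% of all genes) and all below them for 7 (18.9%, against 22.0%).

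A control array stood apart from the others for these genes. On unstimulated replicate 1, 32 of the 37 genes were lower than on both other unstimulated arrays, where 35.7% of all genes were. The median difference between replicate 1 and the mean of replicates 2 and 3 was −0.57 over the 37 genes and 0.01 over all genes, and it ran from −2.10 for GBP2 to 0.54 for IFITM2. At least 2-fold lower on replicate 1 were 10 of the 37 (27.0%), against 0.776% of all genes. None was 2-fold higher there, against 0.0814% of all genes. The 10 were GBP2, IFI44L, OAS2, IFI44, OAS1, IFI6, MX1, IFITM1, EPSTI1 and OAS3. Replicates 2 and 3 lay within 0.62 of each other for every one of these. Replicate 3 was above replicate 2 for 27 of the 37 genes, by a median of 0.14, where 53.9% of all genes were. Other genes differed on this array too. Of the 8 measured monocyte and macrophage markers, CD14 read 7.51 there against 9.67 and 9.65 on the other controls, a larger difference than that of any of the 37 genes (−2.15). MSR1 (−0.69), CD163 (−0.68), CSF1R (−0.46) and ITGAM (−0.34) were also lower there, and CD68 (0.22), LYZ (0.28) and SPI1 (0.16) were higher. All 5 granule genes of myeloid blasts were higher there, from 0.04 for MPO to 0.74 for PRTN3. The median over the monocyte and macrophage list ranged from 9.06 to 9.69 on unstimulated arrays and from 10.76 to 11.13 with PMA, and that over the granule list from 11.58 to 12.23 and from 6.66 to 6.92. Not all of the former list rose with PMA in limma over 6 arrays. CD14, ITGAM, CSF1R, MSR1 and CD163 rose, whereas LYZ fell (−2.76 ± 0.13, adjusted p = 8.72e-06). CD68 (−0.24 ± 0.10, adjusted p = 0.136) and SPI1 (0.20 ± 0.10, adjusted p = 0.202) did not pass. The part of the differences on unstimulated replicate 1 in the results was not tested.

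**Figure D2:**
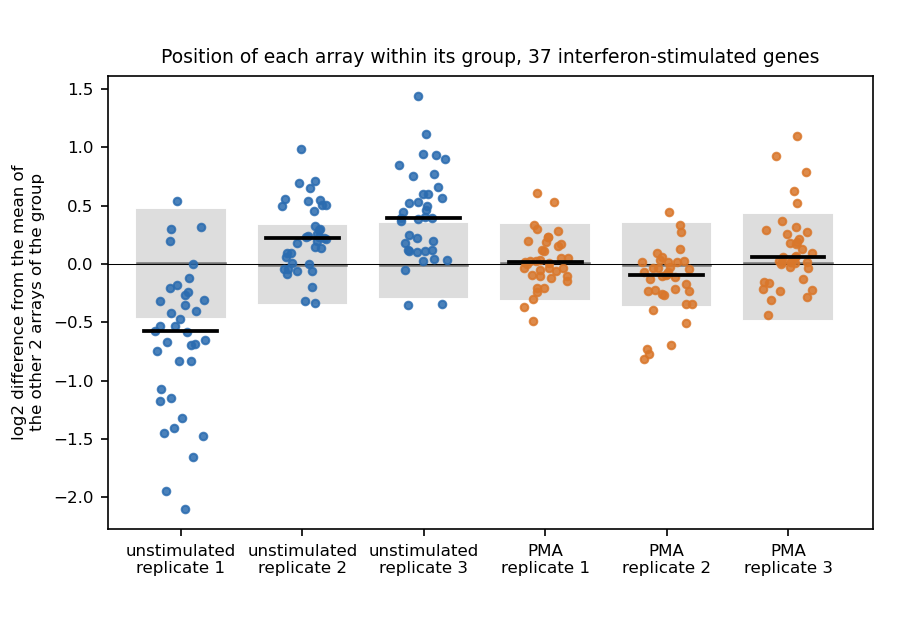
Log2 difference between each array and the mean of the other 2 arrays of its group, with 1 point for each of the 37 genes, black lines at their medians, and grey boxes from the 5th to the 95th percentile of all genes with a line at their median. On unstimulated replicate 1 the median of the 37 genes is −0.57 and the lowest point is −2.10 (GBP2), while on the PMA arrays the medians lie between −0.09 and 0.06. Points on unstimulated replicates 2 and 3 lie mostly above 0 because replicate 1 enters the mean they are set against.

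The comparison was therefore also fitted against unstimulated replicates 2 and 3 alone. Without replicate 1, 11 of the 37 genes were lower (29.7%, against 12.5% of all genes) and 6 higher (16.2%, against 13.3%), and the median was −0.14, against −0.02 over all genes. Replicate 1 was left out because these genes were low on it. A shift of their counts and median towards lower therefore follows in part from that choice. All 11 calls of the full comparison were kept, in the same direction. IFI44L, MX1, GBP2, OASL and IFIT1 joined the genes that were lower, and BST2 joined those that were higher. With all 6 arrays kept and array quality weights in limma, IFI44L, MX1, OASL and IFIT1 also passed (adjusted p = 0.00517, 0.0139, 0.0168 and 0.0189), whereas GBP2 (0.168) and BST2 (0.0648) did not. IFI27, which passed neither over 6 arrays without weights nor without replicate 1, passed with weights (0.0453). The weighted fit uses the same arrays, so it is not separate support. Leaving out replicate 1 took the median standard error over the 37 from 0.18 to 0.13, while over all genes it was 0.12 in both fits. This fall also follows in part from the choice of array, and the adjusted p-values without replicate 1 rest on the smaller standard errors. In 7 genes, none past the threshold in either fit, the sign turned.

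**Figure D3:**
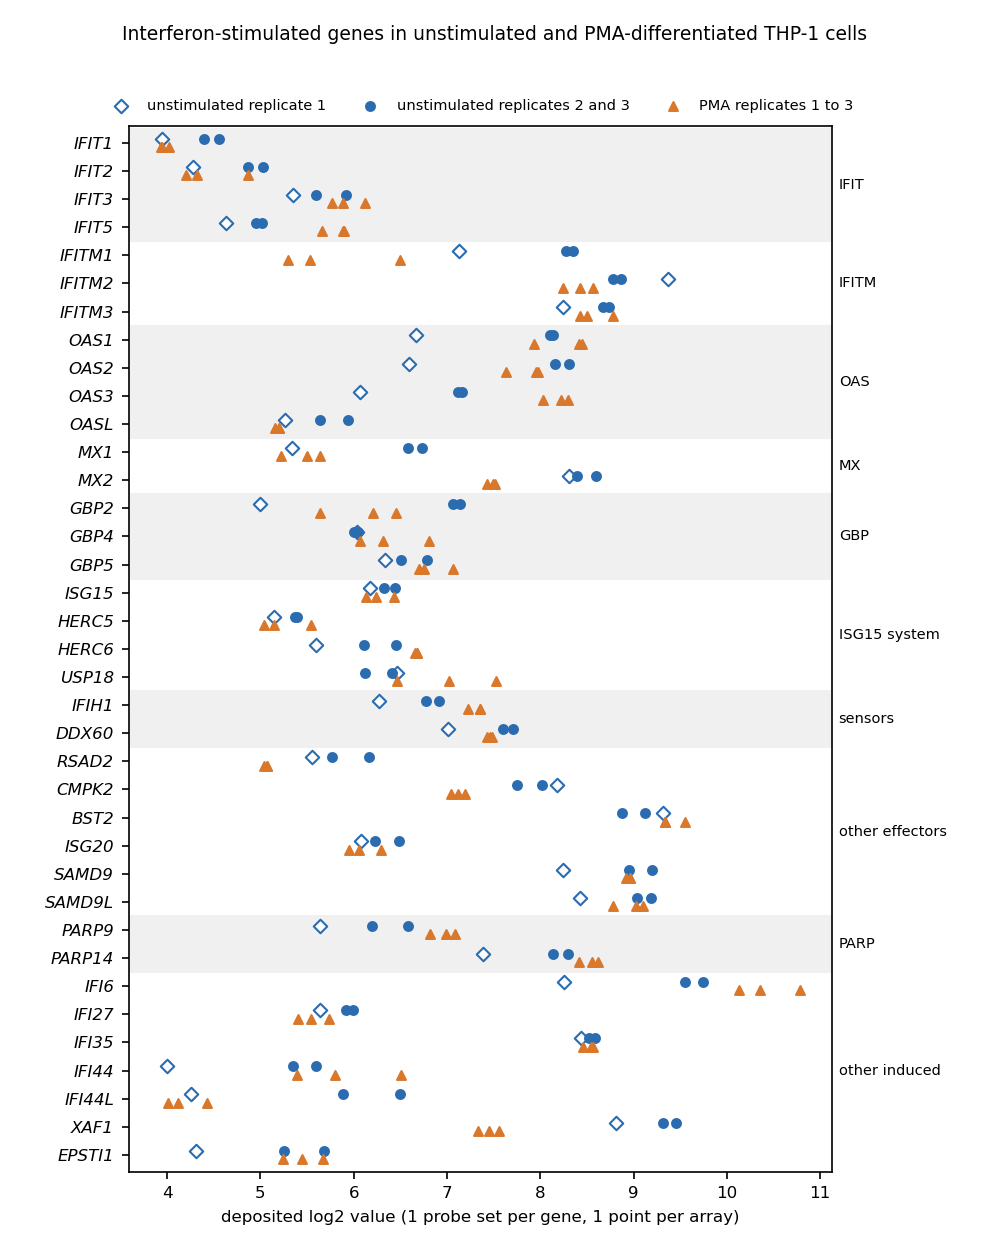
Deposited log2 value of each of the 37 genes on each array, grouped by role, with an open diamond for unstimulated replicate 1, blue circles for unstimulated replicates 2 and 3, and orange triangles for the PMA arrays. For OAS2, GBP2 and DDX60 the PMA arrays lie between the diamond and the circles. Positions are comparable along a row, not between rows, since each gene is read by its own probe set.

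The oligoadenylate synthetases make a short messenger, 2′-5′ oligoadenylate, that activates the RNA-cutting enzyme RNase L. OAS3, the largest of the enzymes, read 6.07, 7.12 and 7.16 on the unstimulated arrays and 8.22, 8.03 and 8.30 with PMA. It rose by 1.40 ± 0.28 (adjusted p = 0.00773), and by 1.04 ± 0.11 without replicate 1 (0.000916), so that the PMA arrays lay above every control array. Its neighbours OAS1 and OAS2 did not pass in either fit. OAS1 read 6.67, 8.10 and 8.14 and then 8.42, 7.93 and 8.45 (0.63 ± 0.38, adjusted p = 0.280, and 0.15 ± 0.17 without replicate 1). OAS2 read 6.59, 8.16 and 8.31 and then 7.95, 7.63 and 7.98, so that PMA arrays were above replicate 1 and below both other controls. Its fold change was 0.17 ± 0.41 (adjusted p = 0.827) and −0.38 ± 0.14 without replicate 1 (0.0842). OASL, an enzymatically inactive relative, read 5.26, 5.94 and 5.64 and then 5.16, 5.20 and 5.20. The groups did not overlap, and it passed without replicate 1 (−0.60 ± 0.12, adjusted p = 0.00995) but not over 6 arrays (0.0972). The difference between the responses of these genes was not tested.

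The IFIT proteins bind foreign RNA ends and stall its translation. IFIT5 rose, with 4.63, 5.02 and 4.95 on unstimulated arrays and 5.89, 5.66 and 5.90 with PMA (0.95 ± 0.13, adjusted p = 0.00147, and 0.83 ± 0.11 without replicate 1). IFIT1, the best known of the family, was near background throughout. It lay at 3.94, 4.39 and 4.56 and then at 3.93, 3.94 and 4.02, where the arrays' lower quartiles were 4.46 to 4.57. It passed without replicate 1 (−0.51 ± 0.10, adjusted p = 0.0106) but not over 6 arrays (0.172), and its size is uncertain at that level. IFIT2 (−0.26 ± 0.24) and IFIT3 (0.30 ± 0.16) did not pass in either fit. IFIT2, IFIT3, IFIT1 and IFIT5 lie near each other in the genome, with at most 1 other protein-coding gene between neighbours.

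The IFITM proteins sit in membranes and hinder virus fusion. IFITM1 had the largest fall of the set. It read 7.13, 8.35 and 8.27 on unstimulated arrays and 5.53, 5.29 and 6.50 with PMA (−2.15 ± 0.40, adjusted p = 0.00583, and −2.54 ± 0.33 without replicate 1). All PMA arrays were below all controls, although PMA replicate 3 and unstimulated replicate 1 came within 1 log2 unit of each other. IFITM2 also fell, from 9.37, 8.87 and 8.78 to 8.57, 8.24 and 8.43 (−0.59 ± 0.17, adjusted p = 0.0354, and −0.41 ± 0.12 without replicate 1). It was the member with the highest excess on replicate 1, and its call was lost without unstimulated replicate 2 (adjusted p = 0.0668), PMA replicate 1 (0.0594), PMA replicate 2 (0.114) or PMA replicate 3 (0.0532), and with arrays centred on their medians. IFITM3, at 8.24 to 8.74 before and 8.43 to 8.78 after, overlapped between groups (0.02 ± 0.16, adjusted p = 0.949). IFITM1, IFITM2 and IFITM3 are close relatives, so their probe sets may share signal.

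MX1 and MX2 are dynamin-like GTPases, of which MX1 traps influenza virus components and MX2 acts against HIV. MX2 read 8.31, 8.39 and 8.60 and then 7.51, 7.43 and 7.49, with no overlap (−0.96 ± 0.10, adjusted p = 0.000448). MX1 read 5.34, 6.58 and 6.73 and then 5.64, 5.22 and 5.50. Replicate 1 lay among the PMA arrays, so MX1 did not pass with it (−0.76 ± 0.34, adjusted p = 0.150) and passed without it (−1.20 ± 0.14, adjusted p = 0.00134). MX2 was steadier, with fold changes of −1.02 to −0.88 when single arrays were left out.

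Further antiviral enzymes fell as neighbours. RSAD2 (viperin) makes a chain-terminating nucleotide, and CMPK2, the adjacent gene, encodes a mitochondrial nucleotide kinase. CMPK2 went from 8.18, 8.02 and 7.75 to 7.19, 7.04 and 7.12 (−0.87 ± 0.13, adjusted p = 0.00186, and −0.77 ± 0.12 without replicate 1). RSAD2 went from 5.55, 5.77 and 6.16 to 5.07, 5.04 and 5.07 (−0.76 ± 0.15, adjusted p = 0.00793, and −0.90 ± 0.13 without replicate 1). Neither had overlapping groups, and both kept their calls without replicate 1. BST2 (tetherin), which holds budding viruses at the cell surface, was 9.31, 8.88 and 9.12 before and 9.34, 9.34 and 9.55 after (0.30 ± 0.13, adjusted p = 0.136, and 0.41 ± 0.12, adjusted p = 0.0493, without replicate 1). The nuclease ISG20 (−0.16 ± 0.14) and the paired restriction factors SAMD9 (0.15 ± 0.22) and SAMD9L (0.08 ± 0.20) did not pass. SAMD9 and SAMD9L were 0.83 and 0.68 lower on replicate 1 than on the other controls.

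Of the sensors IFIH1 rose and DDX60 did not pass, and of the measured PARP genes PARP9 rose and PARP14 did not pass. IFIH1 (MDA5), a cytosolic sensor of long double-stranded RNA, read 6.27, 6.77 and 6.91 and then 7.23, 7.35 and 7.35 (0.66 ± 0.16, adjusted p = 0.0204, and 0.47 ± 0.10 without replicate 1). PARP9, which works with DTX3L in ADP-ribosylation and ubiquitin transfer, read 5.64, 6.20 and 6.58 and then 7.09, 6.99 and 6.82 (0.83 ± 0.22, adjusted p = 0.0267, and 0.58 ± 0.14 without replicate 1). In both genes every PMA array was above every control, replicates 2 and 3 included. The IFIH1 call was lost without PMA replicate 1 (adjusted p = 0.0539) or PMA replicate 2 (0.062). That of PARP9 was lost without unstimulated replicate 2 (0.0758), PMA replicate 1 (0.0969) or PMA replicate 2 (0.0723). PARP14 showed the same order of groups without passing (0.59 ± 0.22, adjusted p = 0.0936). The helicase DDX60 read 7.01, 7.60 and 7.71 and then 7.43, 7.48 and 7.46, between replicate 1 and the other controls.

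ISG15 is a ubiquitin-like protein that HERC5 attaches to targets and USP18 removes. ISG15, HERC5, HERC6 and USP18 did not pass in limma in either fit. HERC6 and USP18 were under an unadjusted p of 0.05 over 6 arrays. UBE2L6, the enzyme that passes ISG15 to its ligase, is counted in a list below. It rose by 1.21 ± 0.14 (adjusted p = 0.000586), and by 1.11 ± 0.13 without unstimulated replicate 1 (adjusted p = 0.0014). ISG15 itself read 6.17, 6.32 and 6.44 before and 6.13, 6.24 and 6.43 after (−0.04 ± 0.12, adjusted p = 0.848), and HERC5 was −0.06 ± 0.15. HERC6 (0.63 ± 0.20, adjusted p = 0.0514) and USP18 (0.68 ± 0.25, adjusted p = 0.0843) had PMA arrays above all controls.

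Guanylate-binding proteins are GTPases that attack pathogen-containing vacuoles and respond to interferon gamma as well. GBP2 had the widest control spread of the set, at 5.0, 7.06 and 7.14, against 6.21, 5.64 and 6.45 with PMA. Its fold change was −0.30 ± 0.54 (adjusted p = 0.756), and −1.0 ± 0.23 (0.0186) without replicate 1. A second GBP2 probe set, read separately, gave 4.80, 6.53 and 6.79 and then 5.78, 5.34 and 6.05, the same order of arrays. GBP4 (0.37 ± 0.18) and GBP5 (0.29 ± 0.15) did not pass in either fit, and GBP4 differed little between controls (6.03, 6.0 and 6.05).

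The remaining genes include IFI6, XAF1 and the adjacent pair IFI44L and IFI44. IFI6, a mitochondrial and endoplasmic reticulum protein that protects from cell death, read 8.25, 9.55 and 9.74 and then 10.78, 10.36 and 10.13. It rose by 1.24 ± 0.37 (adjusted p = 0.0438) and by 0.78 ± 0.19 (0.0249) without replicate 1. Its call over 6 arrays was lost without unstimulated replicate 2 (0.0696), PMA replicate 1 (0.150) or PMA replicate 2 (0.0932), and with quantile normalization repeated or cyclic loess. XAF1, a partner of the apoptosis inhibitor XIAP, read 8.81, 9.32 and 9.45 and then 7.45, 7.33 and 7.56. It fell by 1.75 on the log2 scale (standard error 0.17, adjusted p = 0.000274), a 3.37-fold difference, and by 1.94 without replicate 1, and kept its call under every alternative run. IFI44L read 4.25, 5.88 and 6.50 and then 4.12, 4.01 and 4.43, so that replicate 1 lay among the PMA arrays. Its fold change was −1.36 ± 0.50 (adjusted p = 0.0868), and −2.00 ± 0.21 (0.000761) without replicate 1, with PMA levels below every array's lower quartile. IFI44 read 4.0, 5.35 and 5.60 and then 5.80, 5.39 and 6.51, and did not pass (0.92 ± 0.44, adjusted p = 0.177). The difference between the responses of IFI44L and IFI44 was not tested. EPSTI1 read 4.31, 5.25 and 5.68 and then 5.67, 5.44 and 5.24 (0.37 ± 0.31). IFI27 (−0.29 ± 0.13) and IFI35 (0.01 ± 0.09) did not pass in either fit.

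Over both fits 20 of the 37 genes passed in neither. Their fold changes ran from −0.29 to 0.92 over 6 arrays and from −0.49 to 0.75 without replicate 1, and 19 of the 20 were within 0.5 of 0 in the latter.

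**Figure D4:**
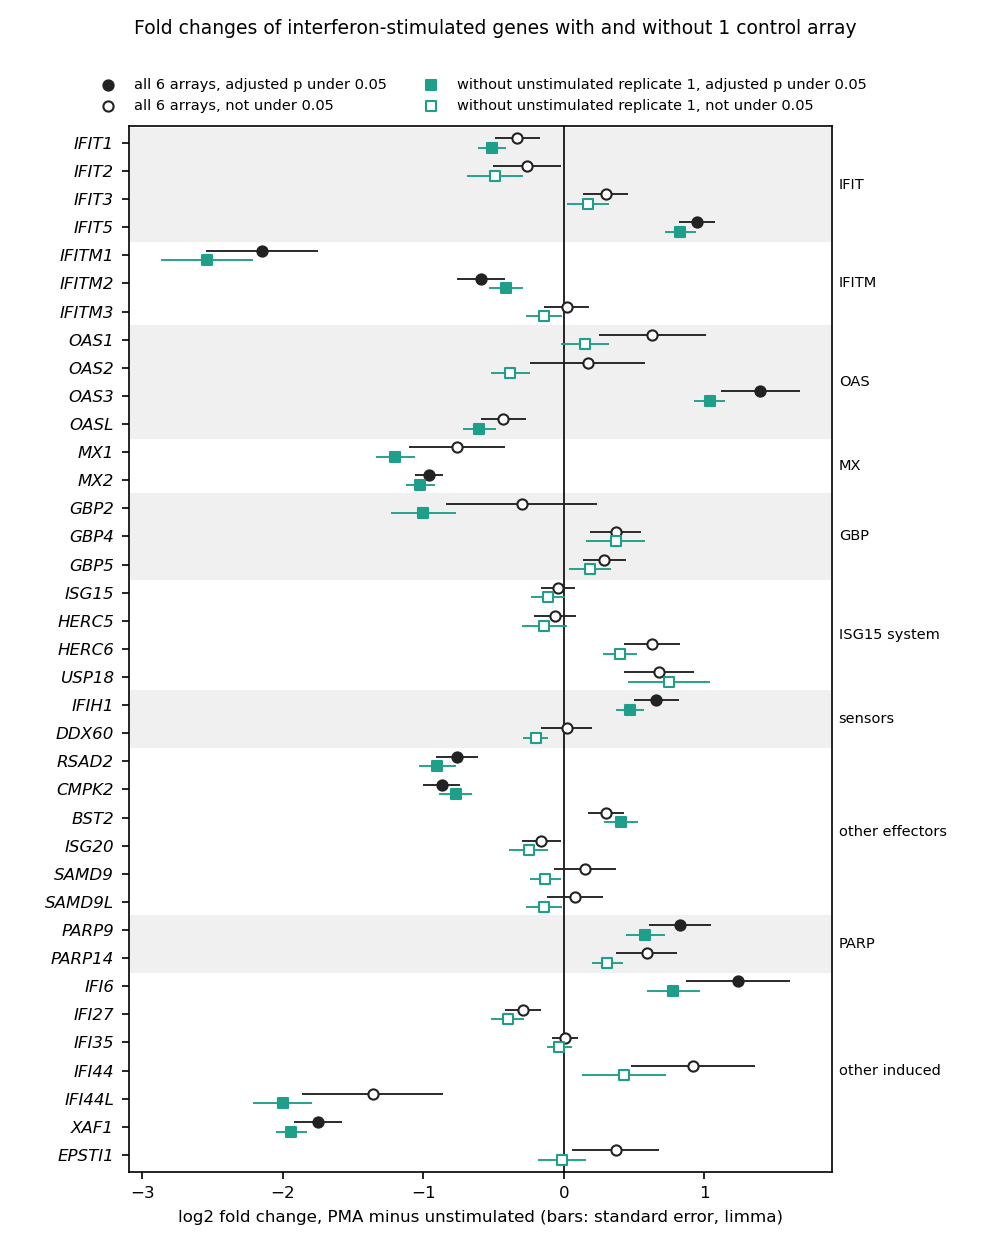
Log2 fold change, PMA minus unstimulated, of each of the 37 genes with all 6 arrays (black circles) and without unstimulated replicate 1 (green squares), with bars of 1 standard error from limma and filled symbols at an adjusted p under 0.05. IFITM1, XAF1 and, without replicate 1, IFI44L lie lowest, OAS3 lies highest, and most green squares lie to the left of their black circles.

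Promoter letters and responses were set side by side as a description. Of the 23 measured genes with the core in a window, 5 rose and 2 fell over 6 arrays (13.2% of all genes each way). Without replicate 1, 6 of them rose and 5 fell (13.3% and 12.5% of all genes). Of the 6 measured genes with windows but no core, none rose and 2 fell in either fit (XAF1 and CMPK2). The median difference on unstimulated replicate 1 was −0.57 for the former and −0.63 for the latter. Outside the set, 564 tested genes held the core. At least 2-fold lower on that array were only 6 of them (1.06%), against 92 of the 13646 other genes without it (0.674%). With PMA 14% of them were higher and 15.1% lower, against 13.7% and 13.3%.

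Genes that carry the interferon signal were taken from lists of names. Their counts stand against the 13.2% of all genes that were higher and the 13.2% that were lower over 6 arrays, and 13.3% and 12.5% without unstimulated replicate 1. Of 21 interferon genes, 16 were measured, 0 passed in limma in either fit (0 also at an unadjusted p of 0.05 over 6 arrays), and 13 lay below the highest lower quartile on every array. IFNB1, the beta interferon gene, read 2.67 to 3.31. IFNL1 (5.50 to 5.86), IFNL2 (5.63 to 6.18) and IFNL3 (7.53 to 8.07) lay above that quartile on every array. Among 16 measured receptor and signalling genes, 3 rose and 2 fell (2 and 3 without unstimulated replicate 1, and 0 lower without unstimulated replicate 3 or PMA replicate 1), which is near the shares of all genes. The receptor chains IFNAR1 (0.88 ± 0.13, adjusted p = 0.00199) and IFNGR2 (0.97 ± 0.11, adjusted p = 0.000633) rose with every array left out in turn, whereas IFNGR1 (1.26 ± 0.39, adjusted p = 0.0475) lost its call without any of 4 arrays, among them unstimulated replicate 1 (0.122). The phosphatase PTPN6, which dampens Janus kinase signals, fell (−0.72 ± 0.20, adjusted p = 0.0304), as did the feedback inhibitor CISH (−0.41 ± 0.10, adjusted p = 0.0158). PTPN6 lost its call without unstimulated replicates 2 or 3 or PMA replicates 1 or 2, and CISH without unstimulated replicate 3 or PMA replicate 1. IRF9, a DNA-binding subunit of the complex that recognises the response element, was 7.37, 7.87 and 7.97 before and 7.43, 7.26 and 7.14 after, and passed without replicate 1 (−0.65 ± 0.12, adjusted p = 0.00785) but not over 6 arrays (0.0852).

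Of 7 measured interferon regulatory factors, 2 rose and 2 fell (13.2% of all genes each way), with the same counts when any array was left out. IRF8, a factor of the monocyte lineage, went from 11.90, 11.61 and 11.68 to 8.21, 8.60 and 8.08 (−3.43 ± 0.15, adjusted p = 7.73e-06), and IRF5 fell by 0.93. IRF1 (0.88 ± 0.13) and the repressor IRF2 (1.16 ± 0.14) rose, while IRF7, itself induced by interferon, did not pass (−0.20 ± 0.10, adjusted p = 0.199). On unstimulated replicate 1, IRF1 (0.37), IRF5 (0.37), IRF8 (0.25) and IRF3 (0.23) were above the mean of the other controls, IRF4 (0.01) was level with it, and IRF2 (−0.41) and IRF7 (−0.14) were below it.

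Of 16 nucleic acid sensors and adaptors, 6 rose and 2 fell (13.2% of all genes each way), and 4 and 1 did so without unstimulated replicate 2. The count that fell was near the share of all genes. The DNA sensor IFI16 (2.03 ± 0.22, adjusted p = 0.000475) rose most, and STING1, the adaptor of cytosolic DNA sensing, fell from 10.13, 10.14 and 10.12 to 8.05, 7.91 and 8.18 (−2.09 ± 0.10, adjusted p = 9.35e-06). RIGI, the sensor related to IFIH1, did not pass (0.48 ± 0.17, adjusted p = 0.0748).

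Of 36 measured further interferon-stimulated genes, 10 rose and 6 fell (13.2% of all genes each way), and 10 and 8 did so without replicate 1 (13.3% and 12.5% of all genes). The 6 that fell were near the share of all genes. PARP12 (1.24 ± 0.09) and LGALS3BP (1.31 ± 0.16) rose, as did UBE2L6 (1.21 ± 0.14), the enzyme that passes ISG15 to its ligase. The death ligand TNFSF10 (−2.39 ± 0.22) and the ubiquitin ligase TRIM25 (−1.66 ± 0.15), which modifies RIGI, fell. The median difference on replicate 1 was −0.22 for this list and 0.12 for 14 measured targets of interferon gamma, of which 2 rose and 1 fell, near or below the 13.2% of all genes each way. Without replicate 1, 4 of those targets rose, and without PMA replicate 3, 5 did. Among them TAP1, a peptide transporter of class I presentation, rose by 0.85 ± 0.14 (adjusted p = 0.00339) and PSMB10 fell by 0.73.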

How the data were processed

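Total RNA of 6 samples was labelled with biotin and hybridised to single-channel Affymetrix arrays, per the labels' protocols. The authors deposited log2 values, 1 per probe set and array; RMA and Partek are named in the submitters' processing notes; no version was given in the sources used here. RMA typically subtracts background, equalises array distributions and combines probes, which compresses changes near background. Of 33297 probe sets, 19460 named a single gene, 1754 named several and 12083 were not named in the platform annotation; symbols were updated by gene ID (19429 matched). Groups came from the sample titles. Log2 values of 18417 genes were fitted with limma 3.58.1 in R 4.3.3 (lmFit, eBayes, two-sided, Benjamini-Hochberg adjustment over all genes, 7.71 total degrees of freedom). No filter on dim genes was applied. The script was tested on simulated data. Figures were drawn with matplotlib 3.10.9. Promoters came from RefSeq windows. Alternatives changed the scaling between arrays, the filter on dim genes, the rule for several probe sets, the variance model, array weights, the replicate block, the threshold and the arrays included.

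The genes and lists were chosen with earlier results of these data known. All 37 measured members could be named, of each list the genes past the threshold (up to 4 each way), and receptor, signalling and IRF genes whatever their values. RIGI, IFNB1, IFNL1, IFNL2 and IFNL3 were named outside this rule, after their values were seen.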

Additional observations from a re-analysis of the deposited data

How the results depend on the processing

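The count of members higher (5) became 3 with genes below the median left out (17 members remained), 1 by a test using each gene's own variance, 2 at an adjusted p of 0.01 and 0 by treat against a 1.5-fold change, and ran from 2 to 6 when single arrays were left out. It was 3 without unstimulated replicate 2, 2 without PMA replicate 1 and 3 without PMA replicate 2. The count of members lower (6) became 11 with array quality weights, 3 by that test and 2 by treat, ran from 5 to 11 when single arrays were left out, and was 13 (7 higher) without unstimulated replicate 1 and PMA replicate 3 together. In that last setting OAS2 turned from 0.17 to −0.45 (adjusted p = 0.025). The median log2 fold change ran from −0.14 to 0.15 over single arrays left out. The 3 rescalings gave 4 to 6 members higher and 5 to 6 lower. At an unadjusted p of 0.05, 17 of the 37 passed in limma. The share of all genes at that threshold was not counted, so the 17 cannot be set against it. The causes of these changes were not tested. The share of all genes called was counted only for the main fit (13.2% each way) and without unstimulated replicate 1 (13.3% higher and 12.5% lower). Member counts in the other settings, the replicate block included, have no such share beside them. They cannot be read as a behaviour of these genes alone.

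Deviations of same-numbered arrays correlated at 0.177, −0.022 and 0.046 over all genes, and those of differently numbered arrays at −0.154 to 0.112. With 3 arrays a group, these values cannot show whether replicate numbers pair the samples. With the replicate block, 6 members were higher and 7 lower; HERC6, USP18 and IFI44L gained a call and IFI6 lost it (adjusted p = 0.0663). Members near the arrays' lower quartiles have fold changes of uncertain size. They are IFIT1, IFIT2, IFI44L (with PMA and on unstimulated replicate 1), and IFI44 and EPSTI1 on unstimulated replicate 1. IFIT5, which rose, lay just above those quartiles on unstimulated replicate 1 (4.63, against 4.46 to 4.57). With 3 arrays a group, a p that misses the threshold does not show equal levels.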
